A study of Homo sapiens with 22 samples.

Results

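In SK-N-AS neuroblastoma cells treated in 2 stages with the kinase inhibitor PP121 and the cardiac glycoside bufalin, 27 of 35237 genes in the table (0.0766%) stood at least 3 times higher at day 4 of the second stage than in the other SK-N-AS groups. They were chosen from the measured values. Each gene's counts were divided by the library total and given as counts per 1000000 (CPM), and the mean of replicates 1 to 3 at stage 2 day 4 had to reach 10 CPM. With 1 CPM added to every mean, it also had to be at least 3 times the mean of untreated cells, of stage 1 day 4 and of stage 2 day 30. Everything that sets stage 2 day 4 above those 3 groups was therefore used in the choice and is given as a description, with no test. Of the 35237 genes, 9643 reached 10 CPM at stage 2 day 4.

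The 22 libraries came from 2 established human neuroblastoma cell lines, SK-N-AS with 16 libraries and GIMEN with 6. Untreated SK-N-AS cells grew in DMEM with 10% serum (4 libraries). Stage 1 day 4 cells (S1D4, 4 libraries) had 4 days of 5 µM PP121 in DMEM with 1% serum. Stage 2 day 4 cells (S2D4, 4 libraries) went on from S1D4 for 4 days with 5 µM PP121 and 100 nM bufalin in Neurobasal medium with the B27 supplement. Stage 2 day 30 cells (S2D30, 4 libraries) had the same mixture for 30 days. Untreated GIMEN cells grew in RPMI with 10% serum (3 libraries), and GIMEN day 30 cells (D30, 3 libraries) had 2.5 µM PP121 and 10 nM bufalin in RPMI with 1% serum for 30 days without a first stage. Drug and serum changed together between untreated cells and S1D4, and in GIMEN between untreated cells and D30, with the basal medium kept. At stage 2 the medium changed as well. The parts of these changes in a difference from untreated cells cannot be told apart. None of the 22 libraries came from cells kept in low serum or in Neurobasal medium without drug. The labels give replicate numbers but not whether replicates were separate cultures, so p-values measure the spread between these libraries.

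PP121 blocks several tyrosine kinases together with kinases of the PI3K and mTOR pathway, and bufalin blocks the sodium-potassium pump. Neuroblastoma is a tumour of sympathetic nerve precursors, and its cell lines are described along a range from an adrenergic state, with noradrenergic transcription factors, to a mesenchymal state, with mesenchymal matrix and transcription factors. Secreted peptides and growth factors carry signals between neighbouring cells through receptors on their surface, and proteins of the cytoskeleton shape the growth cone of nerve cells. The genes are described below by such roles, which were assigned after the genes were known.

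Library totals lay between 16456484 and 37506800 counts, so 1 CPM stood for 16.5 to 37.5 counts. The labels call both lines mesenchymal. The 21 markers of the mesenchymal state summed to 33850 to 35390 CPM in untreated GIMEN cells against 1633 to 2034 CPM in untreated SK-N-AS cells, in which the 15 adrenergic markers summed to 2849 to 3410 CPM. FN1, fibronectin, made up most of the GIMEN sum, with a mean of 27660 CPM against 66.3 CPM in SK-N-AS. Without it the sums were 7060 to 7322 CPM and 1573 to 1981 CPM, and TWIST1, IRF2, NOTCH2 and NOTCH3 averaged less in untreated GIMEN than in untreated SK-N-AS cells. The adrenergic sum in SK-N-AS was 2587 to 3145 CPM at S1D4, 1009 to 1728 CPM at S2D4 and 491.7 to 566.5 CPM at S2D30. In bulk RNA, fewer cells of a kind and less RNA per cell cannot be told apart.

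The fourth S2D4 library stood apart from the other 3. Across genes, each of S2D4 replicates 1 to 3 had its highest correlation within S2D4 at 0.995 or 0.996 (log2 CPM). Replicate 4 correlated with replicates 1 to 3 at 0.927 to 0.933. Its mesenchymal marker sum was 2708 CPM against 4936 to 5297 CPM in replicates 1 to 3, and its adrenergic sum was 1728 CPM against 1009 to 1067 CPM. The difference was not limited to these markers. For genes of the integrated stress response its sum was 4172 CPM against 2113 to 2199 CPM. For cytokines and chemokines it was 817.2 CPM against 1698 to 1769 CPM. For ERK feedback genes its sum, 4359 CPM, lay within the 4340 to 4396 CPM of replicates 1 to 3. Replicate 4 was not used to choose the genes. The choice of genes high in replicates 1 to 3 and low in the other groups still bears on where it lies, so its counts are given as a description beside the share of all genes, and nothing is read from the gap. It lay below each of replicates 1 to 3 for 23 of the 27 genes, where the same was true of 49.2% of the 9643 genes at 10 CPM or more. For 21 of the 27 genes it still lay above each of the 12 other SK-N-AS libraries, against a background of 13.7%. The exceptions were IGFBP5, DOCK4, GAP43, XIRP2, ADAMTS6 and NTS. On its own, replicate 4 met both thresholds for 6 genes, among them PAEP, UTS2, DISP3, HCST and EGFL7, and 0.105% of all genes did so. Replicates 1 to 3 each lay above the 12 other libraries for all 27 genes, a count that the rule nearly fixes, with 8.28% of genes at 10 CPM or more doing the same. The median of the 27 ratios of the replicate 1 to 3 mean to replicate 4 was 2.39, against 1.05 over the 9643 genes. What sets replicate 4 apart was not tested.

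**Figure D1:**
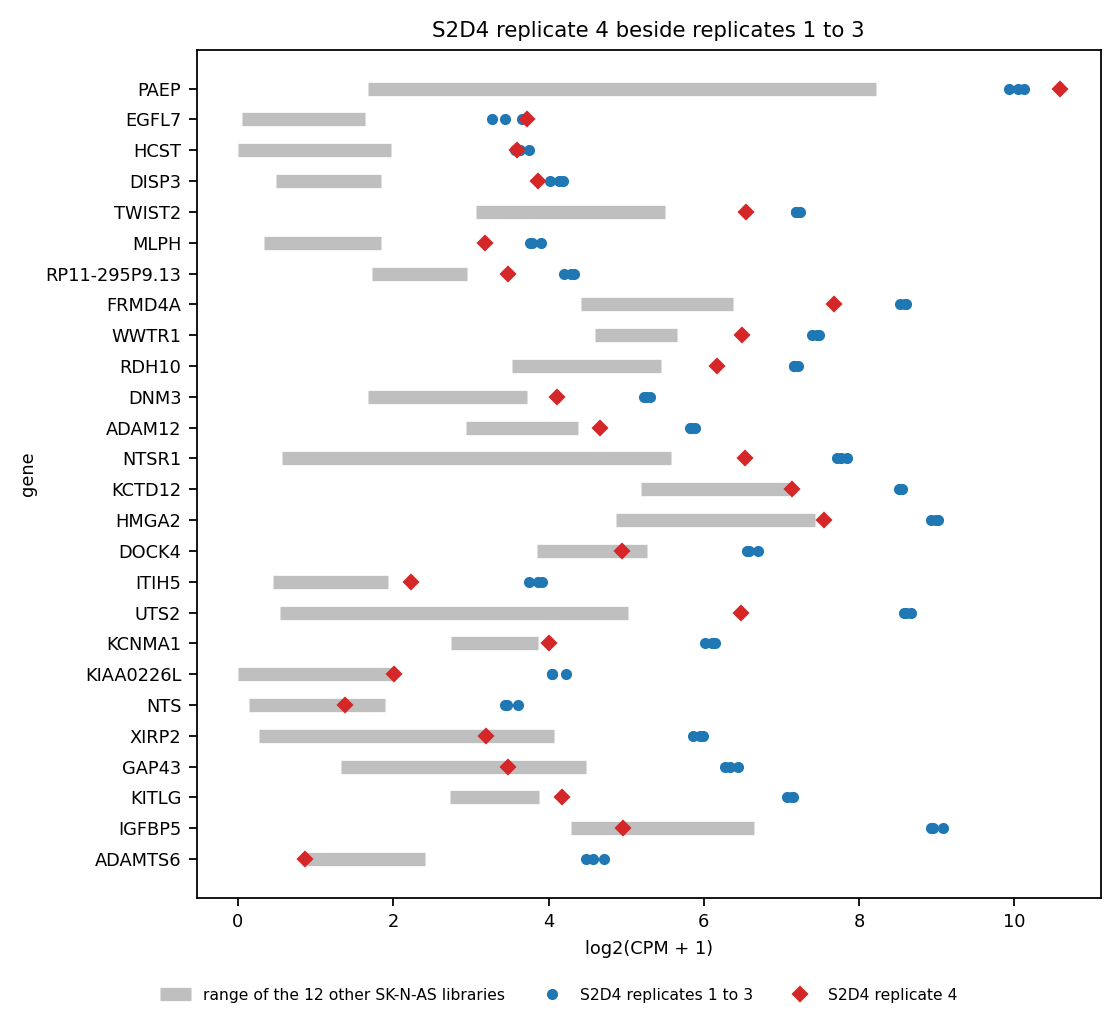
S2D4 replicates 1 to 3 (blue points), S2D4 replicate 4 (red diamonds) and the range of the 12 other SK-N-AS libraries (grey bars) for 26 of the 27 genes, on a log2(CPM + 1) axis, ordered by the ratio of the replicate 1 to 3 mean to replicate 4. The diamonds lie left of the blue points in 23 of these genes, and right of the grey bar in 20.

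Among replicates 1 to 3 the values were close. The coefficient of variation over these 3 libraries ranged from 1.39% to 15.1% with a median of 4.76%. The mean S2D4 level ran from 10.1 ± 1.52 CPM (SD, n = 3) for EGFL7 to 1051 ± 70.8 CPM (SD, n = 3) for PAEP, with a median of 80.6 CPM. The ratio of the S2D4 mean to the highest other group, with 1 CPM added to each, ran from 3.003 to 15.1 with a median of 4.47. UTS2 at 15.1 and KITLG at 13.6 had the highest ratios. The highest other group was S2D30 for 17 genes, S1D4 for 8 and untreated cells for KITLG and ADAM12 (9.26 and 16.3 CPM). Just inside the threshold stood RP11-295P9.13, HMGA2 and DOCK4 with ratios of 3.003, 3.09 and 3.17. Just outside it were TXNIP, PMAIP1 and NPTX2 with ratios of 2.995, 2.91 and 2.90. TIE1, an endothelial receptor, had a ratio of 4.47 but a level of 7.91 CPM, under the minimum.

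**Figure D2:**
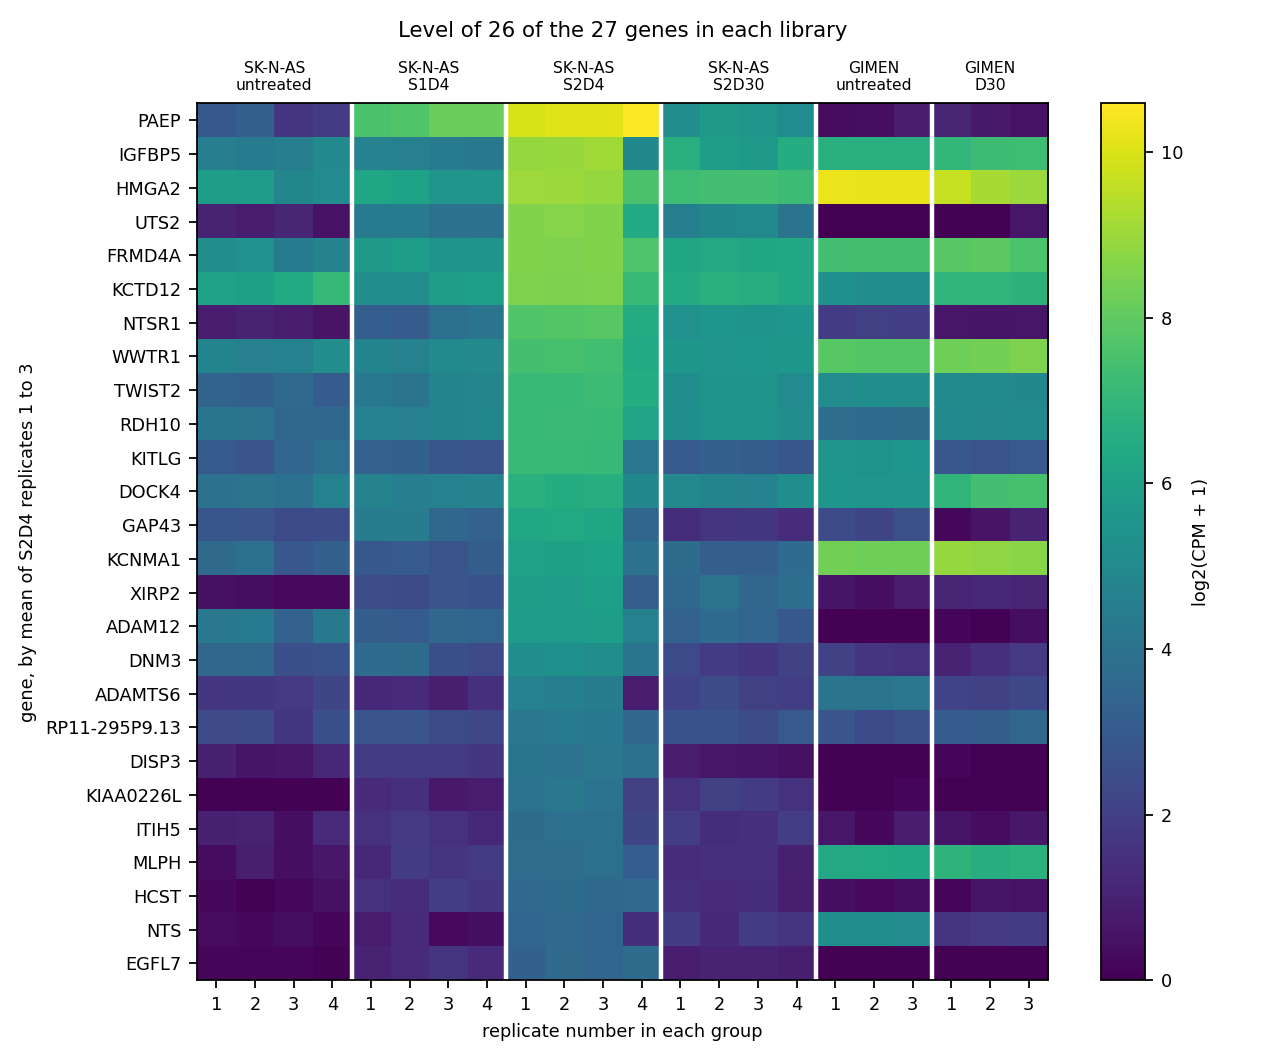
Level of 26 of the 27 genes (rows, ordered by the mean of S2D4 replicates 1 to 3) in each of the 22 libraries (columns, by group and replicate number), as log2(CPM + 1) on the colour scale. In every row the first 3 S2D4 columns are brighter than the 12 columns of the other SK-N-AS groups. Among the rows with bright GIMEN columns are HMGA2, KCNMA1, WWTR1, FRMD4A, IGFBP5 and MLPH. Among those with dark GIMEN columns are PAEP, UTS2 and ADAM12.

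The promoters of genes that moved together were searched for short motifs. RefSeq (GRCh38.p14) gave promoters for 23 of the 27 genes, each running from 250 bases before to 50 bases after a start site. HMGA2, RDH10 and RP11-295P9.13 were among those with no entry. The AP-1 search letters TGANTCA, in which N takes any base, were read on both strands. They were in 5 of the 23 (21.7%) and in 9.37% of all 27305 genes with a promoter. AP-1 is the family of Fos and Jun transcription factors that follow growth and stress signals. Of the 5 genes, DOCK4 had the motif only in the transcribed 50 bases. The 170 bases before the start site are shown for the other 4 because they carry the motif, in capitals, at different distances from it. The last base of each is position -1.

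PAEP, chr9:135561586-135561755, plus strand: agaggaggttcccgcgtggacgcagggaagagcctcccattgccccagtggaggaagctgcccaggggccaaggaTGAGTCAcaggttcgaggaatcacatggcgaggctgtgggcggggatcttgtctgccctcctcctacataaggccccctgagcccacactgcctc

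KCNMA1, chr10:77350762-77350931, minus strand: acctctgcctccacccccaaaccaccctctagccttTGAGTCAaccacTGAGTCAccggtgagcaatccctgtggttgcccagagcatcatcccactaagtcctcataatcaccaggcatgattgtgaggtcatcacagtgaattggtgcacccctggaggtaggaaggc

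XIRP2, chr2:167187202-167187371, plus strand: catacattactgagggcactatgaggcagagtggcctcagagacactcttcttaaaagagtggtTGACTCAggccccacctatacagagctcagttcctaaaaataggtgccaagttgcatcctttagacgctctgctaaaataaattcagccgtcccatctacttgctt

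DISP3, chr1:11478985-11479154, plus strand: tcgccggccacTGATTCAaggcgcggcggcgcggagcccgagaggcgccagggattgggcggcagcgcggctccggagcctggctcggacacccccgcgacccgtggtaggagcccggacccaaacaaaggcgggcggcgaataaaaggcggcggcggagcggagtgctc

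The motif began at position -95 in PAEP, -106 in XIRP2 and -159 in DISP3, and KCNMA1 carried it at -134 and at -122. At N, PAEP and KCNMA1 had G and XIRP2 had C, while DISP3 had T and matched only because N takes any base. The KCNMA1 and XIRP2 sequences each belong to 1 of 2 start sites that the table gives for the gene, and which start site was used cannot be read from counts per gene. CACGTG, the E-box, was in 4 genes (17.4% against 8.78% of all genes). TATAAA was in 4 (17.4% against 13.99%), GAANNTTC of heat shock elements in 3 (13.0% against 8.21%) and TGACNNNGC of antioxidant response elements in 3 (13.0% against 16.1%). The cyclic AMP element TGACGTCA was in ADAMTS6 alone (4.35% against 2.25%) and the EGR motif GCGTGGGCG in KCTD12 alone (4.35% against 0.960%). The kappa-B letters GGANTTTCC and the amino acid response letters TTGCATCA were in none of the 23, against 2.01% and 1.08% of all genes. These are counts of letters, with no test, and a match is not a bound site.

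Secreted proteins other than proteases come first, with 7 genes described. PAEP encodes glycodelin, a secreted lipocalin best known from the endometrium. Its levels were 6.59, 8.36, 2.19 and 2.56 CPM in untreated SK-N-AS cells, 187, 209, 283 and 296 CPM at S1D4, 977, 1058, 1118 and 1534 CPM at S2D4 and 35.6, 50.3, 44.4 and 34.3 CPM at S2D30, in replicate order. The 4 groups did not overlap, and replicate 4 of S2D4 was the highest library of all. PAEP also rose before bufalin was added. S1D4 lay 46.4-fold above untreated cells (log2 fold change 5.53, SE 0.38, adjusted p = 2.69e-08, edgeR quasi-likelihood test with Benjamini-Hochberg adjustment, as for every adjusted p here), and S2D30 lay 8.79-fold above (log2 fold change 3.14, SE 0.35, adjusted p = 4.86e-07). Per kilobase of annotated exon, PAEP was the most abundant of the 26 genes with an annotation at S2D4, at 723 CPM per kb against 219 for UTS2, 78.6 for IGFBP5 and 78.2 for TWIST2. In GIMEN it stayed between 0.273 and 1.16 CPM in all 6 libraries.

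UTS2, the precursor of the vasoactive peptide urotensin II, had the highest ratio of S2D4 to the next SK-N-AS group. It measured 1.04, 0.789, 1.20 and 0.450 CPM in untreated cells, 19.2, 18.9, 14.8 and 14.3 CPM at S1D4, 379.7, 407, 387 and 88.01 CPM at S2D4 and 22.7, 30.1, 31.5 and 15.7 CPM at S2D30. All 4 S2D4 libraries lay above the other 12, though replicate 4 was 4.45 times below the mean of the other 3. UTS2 rose at S1D4 (log2 fold change 4.21, SE 0.47, adjusted p = 3.61e-06) and was still 30.98-fold above untreated cells at S2D30 (log2 fold change 4.95, SE 0.47, adjusted p = 6.36e-08). Of the exon bases of UTS2, 48.5% lie opposite another gene, and whether the counting used strand is not given in the sources used here, so reads of the 2 genes may be mixed.

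Neurotensin and its receptor were both among the 27. The peptide was near the minimum of 10 CPM, with a mean of 10.3 CPM over S2D4 replicates 1 to 3. Over all 4 S2D4 replicates the peptide averaged 8.15 CPM, under that minimum. NTS, which encodes the neurotensin precursor, stood at 0.240, 0.186, 0.313 and 0.104 CPM in untreated cells and 0.804, 1.47, 0.191 and 0.351 CPM at S1D4, then 10.01, 11.2, 9.80 and 1.60 CPM at S2D4 and 2.58, 1.30, 2.72 and 2.09 CPM at S2D30. Replicate 4 of S2D4 fell within the range of S2D30 for this gene. NTSR1, the high-affinity neurotensin receptor coupled to G proteins, was at 0.747, 1.07, 0.784 and 0.485 CPM in untreated cells, 7.87, 7.40, 13.7 and 15.7 CPM at S1D4, 208, 217, 228 and 91.2 CPM at S2D4 and 40.2, 46.1, 43.01 and 46.7 CPM at S2D30. Its 4 groups did not overlap, replicate 4 included. The receptor rose at S1D4 (log2 fold change 3.81, SE 0.35, adjusted p = 5.53e-07) and lay 61.9-fold above untreated cells at S2D30 (log2 fold change 5.95, SE 0.35, adjusted p = 1.68e-10). For the peptide, S2D30 was 10.99-fold above untreated cells (log2 fold change 3.46, SE 0.65, adjusted p = 0.000162), while the difference at S1D4 did not pass the threshold (log2 fold change 1.67, SE 0.71, adjusted p = 0.0719). The NTS difference at S1D4 did pass with DESeq2 (adjusted p = 0.0216) and in the model of the 12 libraries outside S2D4 (0.0288). It also passed without S2D4 replicate 4 (0.0165) or without S1D4 replicate 3 (0.0357).

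KITLG, the ligand of the KIT receptor (stem cell factor), was near its untreated level in the other treated SK-N-AS groups. It measured 7.41, 5.90, 10.1 and 13.6 CPM in untreated cells, 8.98, 8.76, 6.20 and 5.61 CPM at S1D4, 141, 139.7 and 134 CPM in S2D4 replicates 1 to 3 and 7.20, 8.62, 7.77 and 6.18 CPM at S2D30. Untreated cells, S1D4 and S2D30 overlapped, and neither S1D4 (log2 fold change -0.38, SE 0.44, adjusted p = 0.539) nor S2D30 (log2 fold change -0.20, SE 0.44, adjusted p = 0.693) passed the threshold against untreated cells. Replicate 4 of S2D4 read 17.1 CPM, 8.07 times below the mean of the other 3 but above all 12 other libraries.

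IGFBP5, a secreted protein that binds insulin-like growth factors, had the highest ratio between its highest and lowest S2D4 library among the genes above 100 CPM. S2D4 replicates 1 to 3 had 487, 493 and 539 CPM and replicate 4 had 29.98 CPM, inside the range of untreated cells (22.3, 19.2, 21.9 and 31.2 CPM). S1D4 gave 25.2, 23.5, 18.8 and 18.5 CPM, overlapping untreated cells (log2 fold change -0.20, SE 0.51, adjusted p = 0.795). S2D30 gave 99.5, 60.6, 51.3 and 91.8 CPM, all above untreated cells (log2 fold change 1.77, SE 0.52, adjusted p = 0.0057).

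EGFL7 and ITIH5 stayed under 15 CPM in every library. EGFL7, a secreted protein with EGF-like domains best known from endothelium, measured 8.64, 11.7, 9.90 and 12.3 CPM at S2D4 and 0.0346 to 0.133 CPM in untreated cells. The untreated libraries held 5, 2, 2 and 1 counts of EGFL7, so its folds against them rest on few reads. EGFL7 was 14.6-fold higher at S1D4 (log2 fold change 3.87, SE 0.35, adjusted p = 4.93e-07). It was 10.3-fold higher at S2D30 (log2 fold change 3.36, SE 0.36, adjusted p = 2.97e-07), where it measured 0.800 to 1.05 CPM. Endothelial cells were looked for beside it. The 10 endothelial markers summed to 7.92 to 16.8 CPM in untreated cells, 4.77 to 9.83 CPM at S1D4, 4.02 to 10.8 CPM at S2D4 and 5.36 to 9.52 CPM at S2D30. Over the 4 S2D4 libraries TIE1 averaged 6.33 CPM, CDH5 and VWF averaged 0.0807 and 0.0116 CPM and KDR was at 0. ITIH5, a heavy chain of the inter-alpha-trypsin inhibitor family that binds hyaluronan, had 12.5, 13.6 and 14.1 CPM in S2D4 replicates 1 to 3, 3.67 CPM in replicate 4 and at most 2.80 CPM elsewhere in SK-N-AS. It was higher than in untreated cells at S2D30 (log2 fold change 1.31, SE 0.40, adjusted p = 0.00781) and did not pass the threshold at S1D4 (log2 fold change 0.90, SE 0.40, adjusted p = 0.0874).

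**Figure D3:**
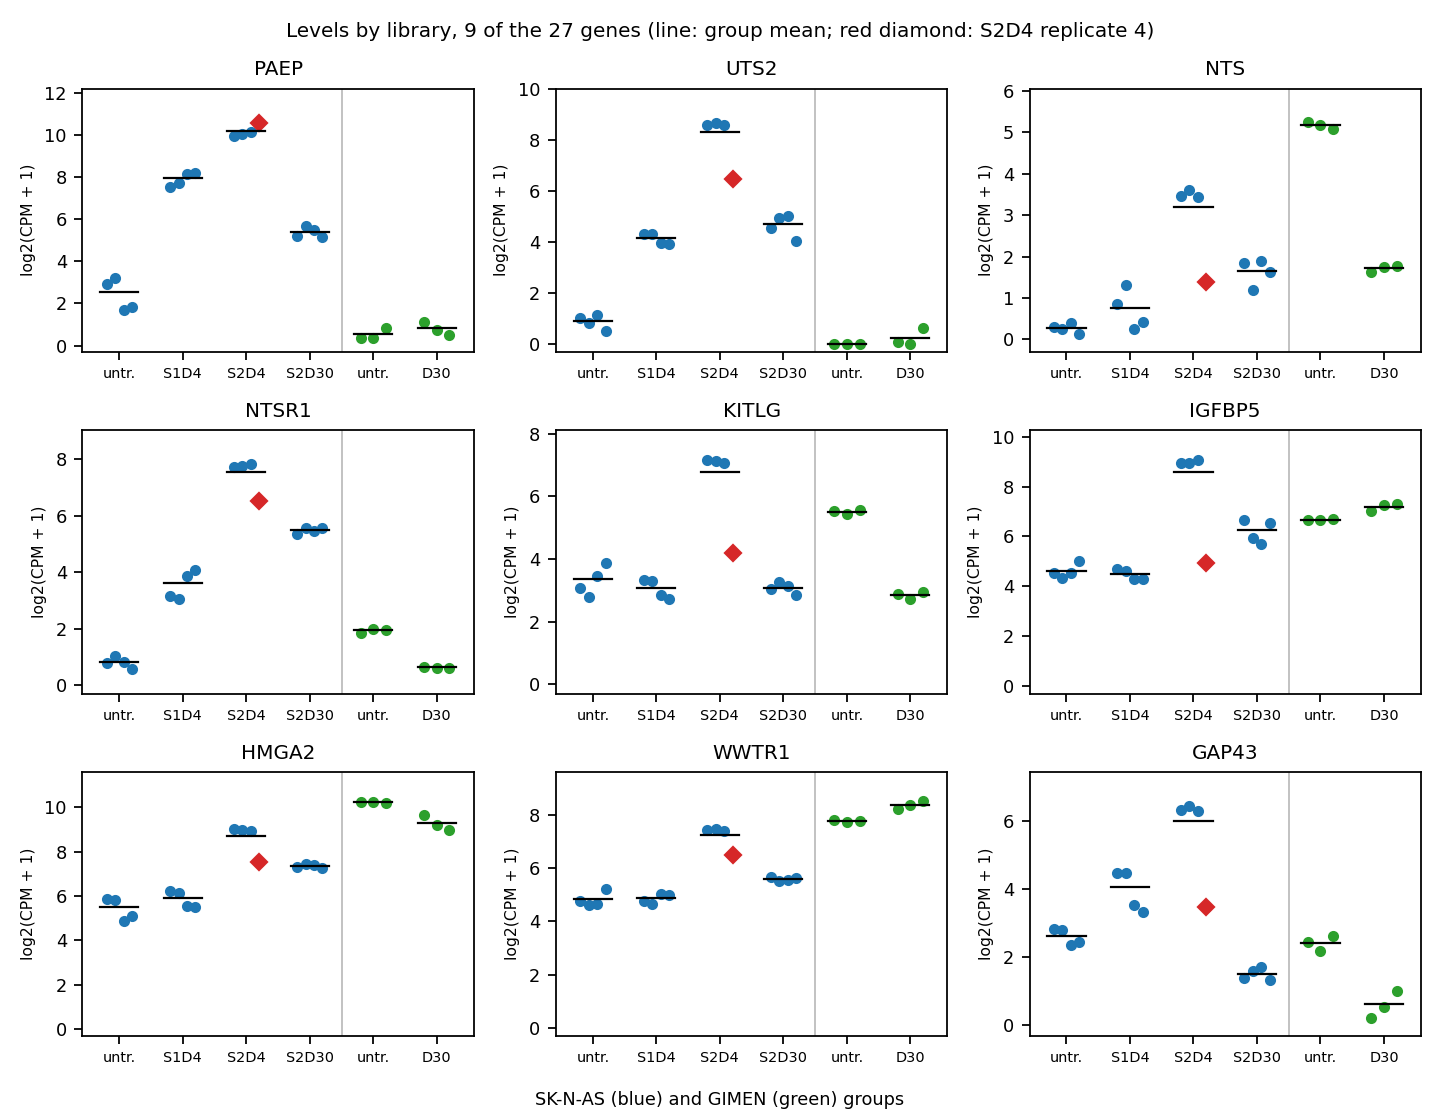
Levels of 9 of the 27 genes, as log2(CPM + 1), in each library of the 4 SK-N-AS groups (blue) and the 2 GIMEN groups (green), with a line at each group's mean over all its libraries and S2D4 replicate 4 as a red diamond. PAEP, UTS2 and NTSR1 step up at S1D4 and stay above untreated cells at S2D30, KITLG overlaps untreated cells in both, and NTS, KITLG, NTSR1, HMGA2 and GAP43 are lower in treated than in untreated GIMEN cells.

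Membrane proteins other than NTSR1, taken with proteins that bind to membrane receptors, were a mixed class. KCTD12, an auxiliary subunit of GABA-B receptors, was already at 67.4, 63.8, 86.1 and 136 CPM in untreated cells and at 36.6, 35.5, 59.2 and 61.3 CPM at S1D4, below all untreated libraries (log2 fold change -0.93, SE 0.27, adjusted p = 0.0126). It reached 374, 364 and 369 CPM in S2D4 replicates 1 to 3 and 139.6 CPM in replicate 4. At S2D30 it was at 86.6, 103, 96.1 and 80.2 CPM, overlapping untreated cells (log2 fold change 0.16, SE 0.27, adjusted p = 0.601). The fall at S1D4 did not pass the threshold when untreated replicate 4, the highest untreated library, was left out (log2 fold change -0.67, adjusted p = 0.0565). KCNMA1, the pore-forming subunit of the large-conductance calcium-activated potassium channel, had 11.6, 13.5, 6.27 and 8.59 CPM in untreated cells, 6.48, 7.14, 5.72 and 7.82 CPM at S1D4, 68.1, 63.6, 69.8 and 15.1 CPM at S2D4 and 12.3, 8.12, 8.12 and 11.8 CPM at S2D30. Both S1D4 and S2D30 overlapped untreated cells, and neither comparison with untreated cells passed (-0.63 (SE 0.35) and 0.10 (SE 0.35), log2 fold changes).

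DISP3, a membrane protein of the dispatched family, and HCST, the DAP10 adaptor of immune receptors, had much the same level in all 4 S2D4 replicates. DISP3 measured 16.5, 15.2, 17.3 and 13.6 CPM and HCST 11.4, 12.5, 10.8 and 11.1 CPM there. DISP3 was at 0.511 to 1.28 CPM in untreated cells, rose at S1D4 to 2.20 to 2.57 CPM (log2 fold change 1.43, SE 0.22, adjusted p = 0.000102) and was at 0.400 to 0.756 CPM at S2D30, which did not pass the threshold against untreated cells (log2 fold change -0.51, SE 0.26, adjusted p = 0.0838). HCST was at 0 to 0.381 CPM in untreated cells, 1.57 to 2.91 CPM at S1D4 (log2 fold change 3.37, SE 0.41, adjusted p = 1.04e-05) and 0.845 to 1.69 CPM at S2D30 (log2 fold change 2.93, SE 0.42, adjusted p = 1.02e-05). Leukocytes were looked for beside HCST. The 15 leukocyte markers summed to 187.6 to 245.8 CPM in untreated cells, 88.7 to 110.8 CPM at S1D4, 100.4 to 143.6 CPM at S2D4 and 104.2 to 149.4 CPM at S2D30. Of the 15, only CD68 and PTPRC averaged 10 CPM or more at S2D4 (87.1 and 22.8 CPM), PTPRC averaged 193 CPM in untreated cells and 0.841 CPM at S2D30, and CD2, CD3E, MS4A1 and AIF1 were at 0 in all 4 S2D4 libraries. Of the exon bases of HCST, 50.1% lie opposite another gene, so reads may be mixed there too.

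3 of the 27 genes encode regulators of transcription. HMGA2, a chromatin protein of embryonic and tumour cells, had 57.99, 55.4, 28.3 and 33.8 CPM in untreated cells, 73.8, 69.3, 45.2 and 44.9 CPM at S1D4, 518, 508, 484 and 186 CPM at S2D4 and 157, 172, 168 and 152 CPM at S2D30. Replicates 1 and 2 were above replicates 3 and 4 both in untreated cells and at S1D4, where the groups overlapped (log2 fold change 0.34, SE 0.28, adjusted p = 0.376), and S2D30 was 3.93-fold above untreated cells (log2 fold change 1.97, SE 0.29, adjusted p = 1.33e-05). WWTR1 encodes TAZ, a coactivator of the Hippo pathway and one of the mesenchymal markers. It measured 26.1, 23.3, 24.3 and 36.7 CPM in untreated cells, 26.3, 24.4, 31.6 and 30.8 CPM at S1D4, 175, 179, 167 and 88.8 CPM at S2D4 and 49.4, 44.9, 45.95 and 48.8 CPM at S2D30. S1D4 lay within the range of untreated cells and S2D30 above it (log2 fold change 0.88, SE 0.16, adjusted p = 0.000154). TWIST2, a basic helix-loop-helix factor of mesenchyme, went from 9.25, 8.82, 11.2 and 7.38 CPM in untreated cells through 18.3, 15.95, 26.5 and 27.3 CPM at S1D4 to 145, 145, 150.0 and 92.2 CPM at S2D4, then to 35.03, 43.99, 44.2 and 33.1 CPM at S2D30. Its 4 groups did not overlap, and both S1D4 (log2 fold change 1.20, SE 0.20, adjusted p = 0.000146) and S2D30 (log2 fold change 2.20, SE 0.20, adjusted p = 3.8e-08) were higher than untreated cells.

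Proteins of the cytoskeleton, membrane traffic and growth cone made up 7 of the 27 genes. GAP43, a growth cone protein and standard marker of neurite growth, had 6.13, 5.99, 4.13 and 4.40 CPM in untreated cells, 21.4, 21.1, 10.6 and 9.02 CPM at S1D4, 79.6, 85.8, 76.4 and 10.2 CPM at S2D4 and 1.60, 2.05, 2.28 and 1.51 CPM at S2D30. It rose at S1D4 (log2 fold change 1.51, SE 0.46, adjusted p = 0.0157) and at S2D30 it was below every untreated library (log2 fold change -1.38, SE 0.52, adjusted p = 0.026). The call at S2D30 was lost without untreated replicate 1 or 2 or S2D30 replicate 1 or 4 (adjusted p = 0.0538 to 0.0664). Replicate 4 of S2D4 lay among the S1D4 libraries. XIRP2, an actin-binding protein of striated muscle, was at 0.400, 0.325, 0.209 and 0.208 CPM in untreated cells, 4.74, 4.15, 6.01 and 5.31 CPM at S1D4, 60.8, 56.99, 62.5 and 8.14 CPM at S2D4 and 10.7, 15.7, 10.2 and 12.99 CPM at S2D30. Replicate 4 of S2D4 was below every S2D30 library. It rose 16.1-fold at S1D4 (adjusted p = 4.56e-05) and 43.99-fold at S2D30 (adjusted p = 1.9e-07).

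FRMD4A, a scaffold of cell polarity complexes, was the most abundant of the 7. S2D4 gave 386, 367, 387 and 205 CPM, untreated cells 36.1, 40.02, 20.3 and 25.5 CPM, S1D4 49.7, 60.4, 41.1 and 43.3 CPM and S2D30 76.6, 82.2, 75.6 and 77.99 CPM. It rose at both times (log2 fold change 0.60, SE 0.21, adjusted p = 0.0313, and log2 fold change 1.44, SE 0.21, adjusted p = 1.21e-05). The S1D4 call was lost without untreated replicate 3 or 4 or S1D4 replicate 1 or 2 (adjusted p = 0.0599 to 0.105). DOCK4, an activator of the small GTPases Rac and Rap, measured 103, 93.4, 94.8 and 29.7 CPM at S2D4, with replicate 4 inside the S2D30 range of 24.8 to 37.4 CPM, and S2D30 was higher than untreated cells (log2 fold change 0.92, SE 0.26, adjusted p = 0.00537). DNM3, a dynamin of membrane fission, had 37.3, 38.6, 36.5 and 16.2 CPM at S2D4. It had 10.4, 10.7, 4.96 and 5.37 CPM in untreated cells and 11.8, 12.2, 4.91 and 4.01 CPM at S1D4. In untreated cells and at S1D4, replicates 1 and 2 were above replicates 3 and 4. DNM3 was lower than in untreated cells at S2D30 (log2 fold change -1.29, SE 0.40, adjusted p = 0.00829).

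The other 2 of the 7 were under 1 CPM in untreated cells, as XIRP2 was. MLPH, melanophilin, which ties pigment granules to myosin, was at 0.267 to 0.836 CPM in untreated cells and 12.9, 12.6, 13.97 and 8.05 CPM at S2D4, and it was higher at S1D4 (log2 fold change 1.98, SE 0.34, adjusted p = 0.000226) and S2D30 (log2 fold change 1.62, SE 0.34, adjusted p = 0.000491). KIAA0226L, named RUBCNL in RefSeq, is a regulator of autophagy. No untreated library held more than 3 of its counts, so its fold changes are lower bounds against 3 counts per library. It was at least 9.75-fold higher at S1D4 (adjusted p = 7.17e-05), at least 19.9-fold higher at S2D30 (adjusted p = 8.28e-07) and, as a description, at least 108-fold higher over S2D4. The S2D4 libraries measured 15.6, 17.8, 15.5 and 3.03 CPM, with replicate 4 just above the S2D30 range of 1.91 to 3.01 CPM.

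Both metalloproteases had other courses. ADAM12, a membrane protease of the ADAM family, measured 17.9, 19.8, 9.09 and 18.2 CPM in untreated cells, 7.73, 7.56, 10.3 and 9.97 CPM at S1D4, 56.3, 55.7, 58.3 and 24.3 CPM at S2D4 and 9.07, 12.1, 10.1 and 6.63 CPM at S2D30. It was lower than in untreated cells at S1D4 (log2 fold change -0.94, SE 0.27, adjusted p = 0.0106) and at S2D30 (log2 fold change -0.68, SE 0.27, adjusted p = 0.0317), although untreated replicate 3 lay inside both ranges. The S2D30 call was lost without untreated replicate 1, 2 or 4 or S2D30 replicate 1 or 4 (adjusted p = 0.0625 to 0.103). ADAMTS6, a secreted protease with thrombospondin repeats, had 25.2, 22.8 and 21.4 CPM in S2D4 replicates 1 to 3 and 0.817 CPM in replicate 4, which was 28.3 times below their mean and the lowest of the 16 SK-N-AS libraries. Untreated cells had 2.21, 2.32, 2.40 and 3.57 CPM, S1D4 1.30, 1.42, 0.858 and 1.80 CPM and S2D30 3.33, 4.31, 2.99 and 2.94 CPM. Neither S1D4 (log2 fold change -1.03, SE 0.63, adjusted p = 0.214) nor S2D30 (log2 fold change 0.47, SE 0.59, adjusted p = 0.487) passed the threshold with replicate 4 of S2D4 among the libraries from which the spread was estimated. Without that library S1D4 did, with the log2 fold change at -1.03 and adjusted p at 0.000827, and so did S2D30, at 0.46 and 0.0398.

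RDH10 oxidises retinol to retinal on the way to retinoic acid, a compound used to differentiate neuroblastoma cells. It stood at 16.3, 15.7, 10.6 and 10.7 CPM in untreated cells, 25.2, 23.7, 26.4 and 28.4 CPM at S1D4, 142, 148, 142 and 71.3 CPM at S2D4 and 37.4, 42.5, 42.00 and 36.6 CPM at S2D30. The 4 groups did not overlap. S1D4 (log2 fold change 0.89, SE 0.19, adjusted p = 0.00179) and S2D30 (log2 fold change 1.66, SE 0.20, adjusted p = 1.03e-06) were both higher than untreated cells. RP11-295P9.13, which the table gives only by a clone name, had 17.3, 19.1, 18.6 and 10.2 CPM at S2D4 and 2.30 to 6.72 CPM in the 12 other SK-N-AS libraries. It was higher than in untreated cells at S2D30 (log2 fold change 0.55, SE 0.23, adjusted p = 0.0463), a call that was lost without untreated replicate 1 or 3 or S2D30 replicate 1, 2 or 4 (adjusted p = 0.0544 to 0.142). It was also lost with upper-quartile scaling (adjusted p = 0.0601) and with a term that sets replicates 3 and 4 of untreated cells and S1D4 apart (log2 fold change 0.35, adjusted p = 0.212).

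The levels at S1D4, with PP121 and low serum but no bufalin, and at S2D30 were each compared with untreated cells. The rule used the means of these 3 groups, holding each below a share of S2D4, but not the differences between them. The counts of genes are therefore given beside those over all genes as a description. At S1D4, 14 of the 27 genes were higher than in untreated cells and 2 were lower (KCTD12 and ADAM12), while 17.6% of all 15810 genes tested were higher and 22.4% lower. The median log2 fold change of the 27 was 0.90 against -0.01 over all genes. At S2D30, 19 of the 27 were higher and 3 were lower (GAP43, ADAM12 and DNM3), against 33.8% and 36.5% of all genes, with a median of 1.44 against -0.03. KCTD12, KITLG, KCNMA1, ADAMTS6 and DISP3 did not pass the threshold at S2D30. Leaving replicate 4 of S2D4 out of the estimate of the spread raised the number lower at S1D4 from 2 to 4, with KCNMA1 and ADAMTS6 added, and the number higher from 14 to 17, with DOCK4, ITIH5 and NTS added. The S1D4 and S2D30 comparisons share the untreated libraries.

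**Figure D4:**
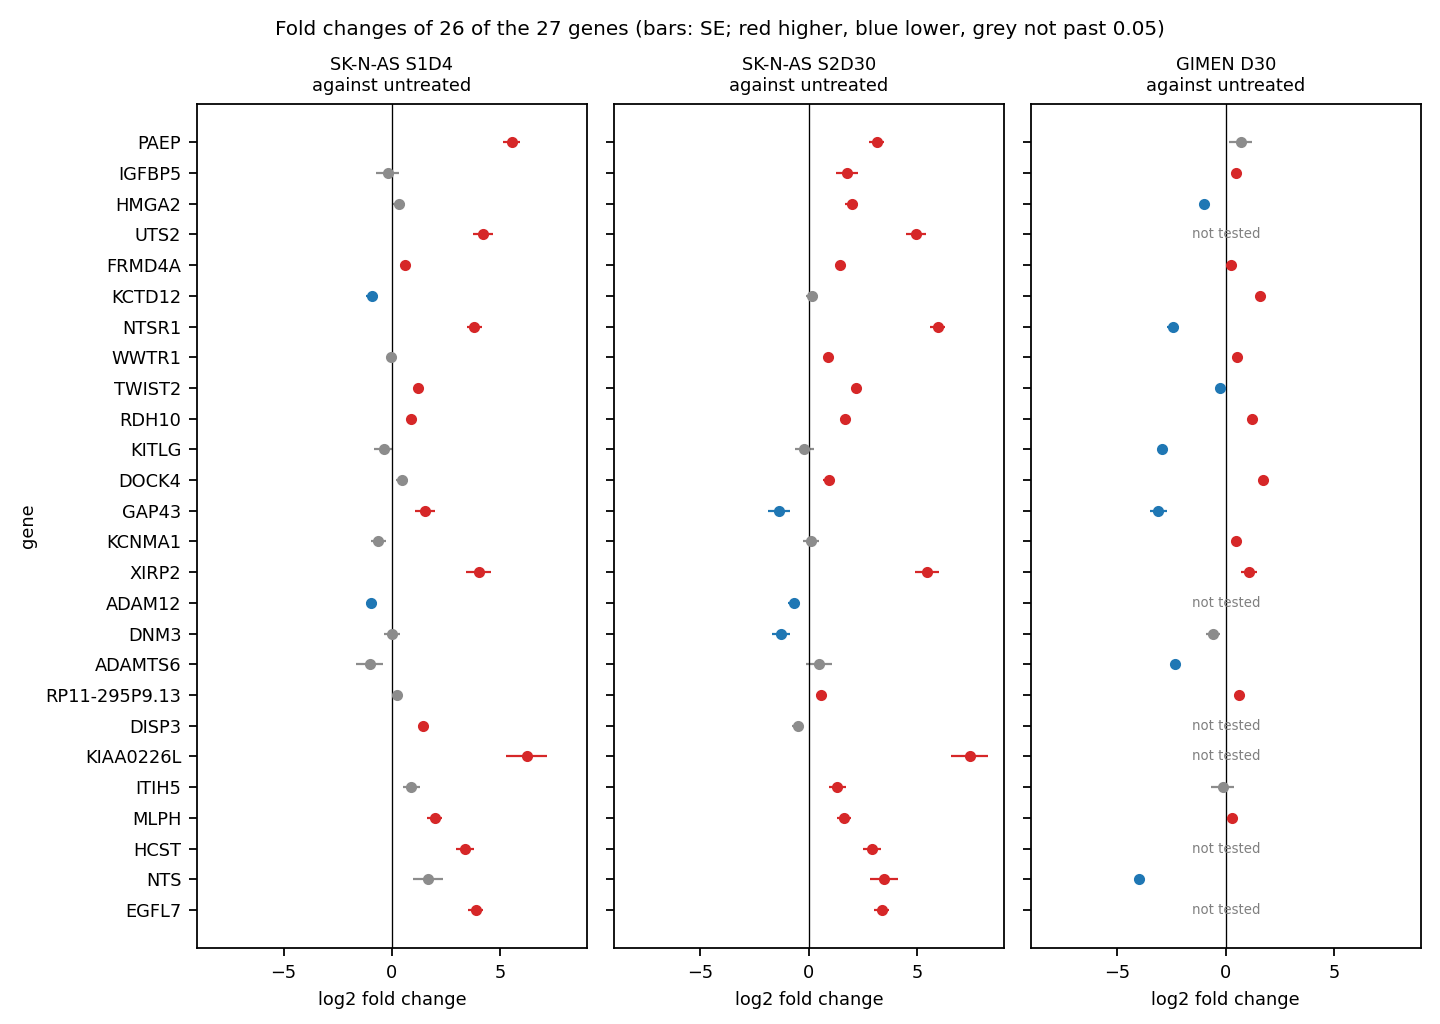
Log2 fold change against untreated cells of the same line, with its standard error as a bar, for 26 of the 27 genes at S1D4, at S2D30 and in GIMEN at D30 (red higher, blue lower, grey not past an adjusted p of 0.05). 13, 18 and 10 of these genes are red in the 3 panels and 2, 3 and 7 are blue, and 6 genes had too few counts in GIMEN to be tested.

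GIMEN took no part in the choice of the genes. In untreated GIMEN cells, 13 of the 27 averaged at least 10 CPM and 9 averaged under 1 CPM. For these counts and the next, the shares over all genes were not counted, so they describe the 27 alone. For 5 genes the untreated GIMEN mean exceeded the S2D4 mean of replicates 1 to 3. HMGA2 was at 1229, 1211 and 1192 CPM, KCNMA1 at 319, 303 and 299.7 CPM and WWTR1 at 226, 213 and 217 CPM. MLPH was at 82.9, 84.3 and 78.02 CPM and NTS at 37.2, 35.2 and 33.1 CPM. At the other end, PAEP was at 0.273, 0.301 and 0.794 CPM, and UTS2, ADAM12, DISP3 and EGFL7 had no count in the 3 untreated libraries. A count of 0 allows up to 3 counts, or 0.129 to 0.149 CPM at these depths.

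After 30 days of treatment, 10 of the 21 genes that could be tested in GIMEN were higher and 7 were lower, where 35.5% of the 13517 genes tested were higher and 36.0% lower. The median log2 fold change was 0.25 against 0.02 over all genes. UTS2, ADAM12, DISP3, KIAA0226L, HCST and EGFL7 did not pass the filter on low counts. The 3 largest falls were in NTS, GAP43 and KITLG. NTS dropped from 37.2, 35.2 and 33.1 CPM to 2.11, 2.37 and 2.43 CPM (log2 fold change -4.02, SE 0.11, adjusted p = 8.24e-11). KITLG dropped from 45.4, 42.2 and 46.03 CPM to 6.42, 5.56 and 6.68 CPM (log2 fold change -2.93, SE 0.09, adjusted p = 2.72e-10). GAP43 dropped from 4.46, 3.57 and 5.11 CPM to 0.158, 0.463 and 1.03 CPM (log2 fold change -3.11, SE 0.41, adjusted p = 3.35e-05). For these 3 genes every treated library was below every untreated one, and for GAP43 the fall was larger without D30 replicate 3, at -3.89. NTSR1 fell too, from 2.64, 3.01 and 2.88 CPM to 0.579, 0.521 and 0.547 CPM (log2 fold change -2.45, SE 0.27, adjusted p = 8.66e-06), as did ADAMTS6, which lay at 15.8 to 17.5 CPM in untreated GIMEN cells and at 3.37, 3.12 and 3.89 CPM at D30 (log2 fold change -2.34, SE 0.13, adjusted p = 2.13e-08). HMGA2 fell from its high untreated level to 795, 590.3 and 509 CPM (log2 fold change -1.02, SE 0.14, adjusted p = 4.59e-05). TWIST2 fell by 0.29 on the log2 scale (adjusted p = 0.00656).

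The larger rises in GIMEN were in DOCK4, KCTD12 and RDH10. DOCK4 went from 46.2, 45.2 and 44.9 CPM to 119.6, 172 and 181 CPM (log2 fold change 1.70, SE 0.12, adjusted p = 2.04e-07). KCTD12 went from 39.2, 36.4 and 37.5 CPM to 119, 119.8 and 115 CPM (log2 fold change 1.56, SE 0.06, adjusted p = 1.65e-09). RDH10 went from 12.96, 12.1 and 12.4 CPM to 31.4, 30.7 and 31.2 CPM (log2 fold change 1.23, SE 0.08, adjusted p = 8.78e-08). In each of the 3 genes every treated library was above every untreated one. XIRP2 (log2 fold change 1.07 (SE 0.37)), RP11-295P9.13 (0.63 (SE 0.17)), WWTR1 (0.52 (SE 0.07)), IGFBP5 (0.45 (SE 0.07)), KCNMA1 (0.45 (SE 0.07)), MLPH (0.30 (SE 0.08)) and FRMD4A (0.25 (SE 0.09)) rose by less or from lower levels. The XIRP2 call was lost with DESeq2 (adjusted p = 0.085), without a filter on low counts (0.051) and without untreated replicate 1 or 2 or D30 replicate 2 (adjusted p = 0.0688 to 0.113), and the FRMD4A call with any 1 library left out other than D30 replicate 3 (adjusted p = 0.0547 to 0.101).

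The change over 30 days was compared between the lines by an interaction term over the 14 untreated and day 30 libraries, for the 21 genes testable in GIMEN. The lines differed in dose, medium, serum and the first stage, and these cannot be told apart from the line. The SK-N-AS side of this comparison uses the means of untreated cells and S2D30, which the rule used. The counts of genes and the median are therefore given beside those over all genes as a description. The GIMEN change was lower than the SK-N-AS change for 13 genes and higher for 2, where 24.5% of 16246 genes were lower and 25.2% higher. The median difference was -1.45 against 0.02 over all genes. The largest differences in log2 change, GIMEN minus SK-N-AS, were -8.38 (SE 0.29) for NTSR1 and -7.47 (SE 0.35) for NTS, both of which rose in SK-N-AS and fell in GIMEN. HMGA2 (difference -2.98 (SE 0.31)) and TWIST2 (-2.47 (SE 0.21)) also had opposite directions, each past the threshold in both lines. KCTD12 and DOCK4 were the 2 genes whose signed change was higher in GIMEN (1.41 (SE 0.24) and 0.80 (SE 0.23)). WWTR1 and RDH10 rose in both lines with a difference that did not pass the threshold (adjusted p = 0.0703 and 0.129). The WWTR1 difference did pass with the replicate block (-0.35, adjusted p = 0.0362), with the term for replicates 3 and 4 (-0.44, adjusted p = 0.0232) and without untreated SK-N-AS replicate 4 (-0.46, adjusted p = 0.00111) or GIMEN D30 replicate 3 (-0.41, adjusted p = 0.0472). The RDH10 difference passed without untreated SK-N-AS replicate 1 (-0.55, adjusted p = 0.0279). In the model of all 22 libraries the DOCK4 difference did not pass (adjusted p = 0.0892).

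The 25 lists of genes by pathway and cell type had 527 entries, of which 4 were members of the 27, each in a different list. The rule took 27 of all 35237 genes (0.0766%), or of the 9643 genes at 10 CPM or more at S2D4. Over all genes tested, 17.6% were higher and 22.4% lower at S1D4, 33.8% and 36.5% at S2D30 and 35.5% and 36.0% in GIMEN at D30. GAP43 was the one among 30 neuronal genes. Of these 30, 13 were higher and 4 lower at S1D4 (median log2 fold change 0.37), and 9 were higher and 19 lower at S2D30 (median -1.35). Their summed level was 5452 to 11940 CPM in untreated cells and 17810 to 23930 CPM at S1D4. The sum was 61030 to 69650 CPM at S2D4 and 37180 to 40210 CPM at S2D30, above untreated cells although most of the genes were lower. KCNMA1 was the one among 35 ion channels and transporters, of which 32 were tested, with 3 higher and 8 lower at S1D4 and 12 higher and 15 lower at S2D30. ADAM12 was the one among 25 matrix proteases and inhibitors, of which 22 were tested, with 8 higher and 4 lower at S1D4 and 13 higher and 7 lower at S2D30 (median 3.19). WWTR1 was the one among the 21 mesenchymal markers, of which 19 were tested, with 5 higher and 5 lower at S1D4 and 12 higher and 6 lower at S2D30 (median 1.03). None of the 30 immediate early genes, 24 genes of the integrated stress response, 18 heat shock genes, 32 cytokines or 20 cell cycle genes was a member. Of the 20 cell cycle genes, all were lower at S1D4, at S2D30 and in GIMEN at D30 (medians -1.74, -5.40 and -5.50).

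In the GENCODE v29 annotation, 26 of the 27 genes were found, all as protein-coding genes, and RP11-295P9.13 was not found. The median span from first to last base was 79.0 kb, against 33.6 kb for 9323 other genes at 10 CPM or more at S2D4. Of the 26, 10 (38.5%) spanned at least 100 kb, against 19.2% of the others. FRMD4A spans 818 kb, KCNMA1 769 kb, DNM3 577 kb and DOCK4 480.3 kb, while HCST spans 1.90 kb and PAEP 5.20 kb. The median exon length was 6.22 kb against 5.44 kb. More than 10% of exon bases lay opposite another gene in some members, among them UTS2, HCST, FRMD4A (17.7%) and DISP3 (14.1%).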

How the data were processed

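RNA was sequenced from 22 libraries of 2 cell lines. Per the labels' protocols, total RNA was treated with DNase and sequenced in paired-end mode. The authors deposited 1 table of raw counts per gene, with whole numbers for 35237 genes in each library. The aligner, counter, genome build and strand setting are not given in the sources used here. Columns were matched to samples by name, and no 2 columns were identical. The column of S2D30 replicate 2 repeated the name of the cell line and was matched on the rest of its name. No row of the table was left out of the library totals.

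CPM is the count divided by the library total. The genes, the lists and the comparisons were chosen with earlier results of these data known. Counts of members cover all 27 genes, and 1 of them is not reported here by its own values. Counts were tested with edgeR 4.0.16 in R 4.3.3 (TMM scaling, filterByExpr with a minimum count of 10, quasi-likelihood F-test, Benjamini-Hochberg adjustment over all genes tested, threshold 0.05). The S1D4 and S2D30 comparisons were fitted over all 16 SK-N-AS libraries with group as the only term, and the GIMEN comparison over the 6 GIMEN libraries. The comparison of the 30-day change between lines, over 14 libraries, was added after seeing the data, as were the alternatives with a term for replicates 3 and 4 and the model of all 22 libraries. Alternatives were other scalings (DESeq2 size factors, upper quartile), DESeq2 1.42.0, other filters, other sets of libraries, a replicate block, other settings of the rule and leaving out each library.

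The genes named were the 10 highest in level, the 10 highest in ratio, list members, the 3 largest rises and falls of each comparison and the genes nearest the threshold. The remaining members, other than that gene, are named as well, after their values were seen. The test script was checked on simulated counts for the GIMEN comparison alone. The SK-N-AS comparisons and the comparison between the lines were not checked this way. The replicate numbers were not used as pairs: deviations of same-numbered libraries from their group means correlated at -0.15 to 0.28 between untreated cells and S2D30, 0.03 to 0.49 between untreated cells and S1D4 and -0.03 to -0.01 in GIMEN. GENCODE v29 gave gene spans and exons, and RefSeq (GRCh38.p14) gave promoters. Counting intervals and the limit of 3 counts for a count of 0 cover counting error only.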

Additional observations from a re-analysis of the deposited data

Results flagged for a closer look

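In groups of 4 libraries, the gap of the highest or lowest library to its neighbour was set against the group's whole range, and a share above the 95% critical value of Dixon's test marked an outlying library. Over 26 of the 27 genes and 4 SK-N-AS groups, 22 of 104 such sets held one, and 20 of these were S2D4 replicate 4, which is 1 library seen through many genes rather than separate events. Chance marks about 1 in 20 groups, a rate that does not apply to S2D4 here, since the genes were chosen for high values in replicates 1 to 3 alone. It was low for each of these 20 genes. For the more abundant of them its values, with the range of replicates 1 to 3, were IGFBP5 30.0 CPM against 487 to 539, HMGA2 186 CPM against 484 to 518, UTS2 88.0 CPM against 379.7 to 407, FRMD4A 205 CPM against 367 to 387, KCTD12 139.6 CPM against 364 to 374, NTSR1 91.2 CPM against 208 to 228, WWTR1 88.8 CPM against 167 to 178, TWIST2 92.2 CPM against 145 to 150.0, RDH10 71.3 CPM against 142 to 148 and KITLG 17.1 CPM against 134 to 141. For the rest they were DOCK4 29.7 CPM against 93.4 to 103, GAP43 10.2 CPM against 76.4 to 85.8, KCNMA1 15.1 CPM against 63.6 to 69.8, XIRP2 8.14 CPM against 57.0 to 62.5, ADAM12 24.3 CPM against 55.7 to 58.3, DNM3 16.2 CPM against 36.5 to 38.6, ADAMTS6 0.817 CPM against 21.4 to 25.2, KIAA0226L 3.03 CPM against 15.5 to 17.8, ITIH5 3.67 CPM against 12.5 to 14.1 and NTS 1.60 CPM against 9.80 to 11.2. Outside S2D4, untreated replicate 4 was high for ADAMTS6, at 3.57 CPM against 2.21 to 2.40 CPM, and untreated replicate 3 was the only untreated library with a count for KIAA0226L, at 0.0522 CPM. What sets these libraries apart was not tested.

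The 30-day change differed between GIMEN and SK-N-AS for 14 of the genes given here by the interaction term (edgeR, adjusted p under 0.05). Differences are GIMEN minus SK-N-AS in log2 fold change. The GIMEN change was lower for PAEP -2.41 (adjusted p = 0.0361), IGFBP5 -1.31 (adjusted p = 0.00034), HMGA2 -2.98 (adjusted p = 6.85e-07), FRMD4A -1.18 (adjusted p = 0.000778), NTSR1 -8.38 (adjusted p = 1.61e-12), TWIST2 -2.47 (adjusted p = 5.56e-08), and also for KITLG -2.71 (adjusted p = 5.39e-07), GAP43 -1.71 (adjusted p = 0.00985), XIRP2 -4.36 (adjusted p = 8.77e-07), ADAMTS6 -2.79 (adjusted p = 1.42e-07), MLPH -1.33 (adjusted p = 0.00256) and NTS -7.47 (adjusted p = 6.04e-11). It was higher for KCTD12 1.41 (adjusted p = 0.000147) and DOCK4 0.80 (adjusted p = 0.00781). The PAEP difference was lost without untreated GIMEN replicate 3 (-1.80, adjusted p = 0.222) and without GIMEN D30 replicate 2 or 3 (adjusted p = 0.0659 and 0.0823). The differences of DOCK4, GAP43 and IGFBP5 were lost in the model of all 22 libraries (adjusted p = 0.0892, 0.126 and 0.117). The GAP43 difference grew to -2.50 without GIMEN D30 replicate 3. Dose, medium, serum and the first stage differed between the lines and cannot be told apart from the line. The rule used the means of the untreated and S2D30 SK-N-AS groups, so the number of genes that differed is a description.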

How the results depend on the processing

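The number of genes that met the rule, 27, became 31 with TMM-scaled library sizes, 25 with the S2D4 mean over all 4 replicates (22 of them shared), 85 with a factor of 2, 19 with a factor of 4 and 24 to 28 with 1 library left out. Of the calls, 15 of 17 in GIMEN, 19 of 22 at S2D30, 14 of 16 at S1D4 and 11 of 15 between the lines passed under every alternative, and no called value changed sign. Between the lines, DOCK4, GAP43 and IGFBP5 lost their call in the model of all 22 libraries (adjusted p = 0.0892, 0.126 and 0.117) and PAEP without single GIMEN libraries. The number of the 27 genes lower at S1D4 went from 2 to 4 in the model of the 12 libraries outside S2D4 and also to 4 without S2D4 replicate 4 in the model. The number whose signed change was higher in GIMEN went from 2 to 4 with a term for replicates 3 and 4 of untreated cells and S1D4. It went to 1 in the model of all 22 libraries. With 1 library left out, the numbers higher and lower were 8 to 10 and 7 to 8 in GIMEN, 18 to 19 and 1 to 4 at S2D30, 13 to 15 and 1 to 2 at S1D4, and 2 and 12 to 15 between the lines. The lowest values came without untreated replicate 1 or S2D30 replicate 4 (1 lower at S2D30) and without untreated replicate 4 (1 lower at S1D4). KIAA0226L had fitted log2 fold changes of 8.87 at S2D30 and 7.68 at S1D4 without untreated replicate 3, against 7.42 and 6.23, which is why bounds are given for it. A replicate block left the numbers at 10 higher and 7 lower in GIMEN, 19 and 3 at S2D30, 14 and 2 at S1D4, and gave 2 and 14 between the lines. The numbers were not taken as pairs. Between untreated cells and S1D4 the correlations were 0.41 to 0.49 for replicates 1, 2 and 4 but 0.03 for replicate 3, and replicates 1 and 2 correlated best with their own number while 3 and 4 did not.

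Values that changed sign were all near 0 and not called. WWTR1 at S1D4 was 0.00 with DESeq2 size factors, 0.01 with upper-quartile factors, 0.00 with DESeq2 and 0.01 in the model of the compared groups alone. DNM3 at S1D4 was 0.02 with DESeq2 size factors, 0.03 with upper-quartile factors, 0.02 with DESeq2, 0.02 without a filter, 0.01 in the model of the 12 libraries outside S2D4 and 0.03 in that of the compared groups alone. KCNMA1 at S2D30 was -0.09 with the term for replicates 3 and 4. With 1 library left out, ITIH5 in GIMEN ran from -0.58 to 0.32, WWTR1 at S1D4 from -0.08 to 0.12, DNM3 at S1D4 from -0.26 to 0.22, KCNMA1 at S2D30 from -0.07 to 0.28, KITLG at S2D30 from -0.36 to 0.02 and RP11-295P9.13 between the lines from -0.05 to 0.27. Causes of these changes were not tested. Depth limits genes of a few counts, such as KIAA0226L in untreated cells and the 6 genes not tested in GIMEN.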
